A study of Homo sapiens with 18 samples.

Results

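The transcription factor NF-kB was followed through 10 of its genes in human myeloma cells exposed to amiloride or TG003. The genes were chosen by name, with earlier results of these data known, so counts of called genes describe this choice. They were the subunit genes NFKB1, NFKB2 and RELB and the inhibitor genes NFKBIA and NFKBIE. TNFAIP3, TRAF1, TRAF3, BIRC3 and ICAM1, which the pathway uses as regulators or switches on as targets, were also taken. Each gene was read from the probe set of its symbol with the highest mean over all arrays. Of the 10 genes 9 were measured, among 22465 genes in all, and each had a single probe set. The annotation used names no probe set under the symbol BIRC3, so BIRC3 was not analysed here.

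RNA was hybridised to 18 microarrays, 3 for each of 6 groups. The groups were JJN3 cells with 0.4 mM amiloride, JJN3 cells with 0.4 mM TG003, JJN3 cells with DMSO, KMS12-BM cells with 0.1 mM amiloride, KMS12-BM cells with 0.4 mM TG003 and KMS12-BM cells with DMSO. Drug exposure lasted 24 h, and all cells were grown in RPMI medium, with a lower share of serum for JJN3 in the labels. JJN3 is an established line labelled plasma cell leukemia, and KMS12-BM is an established line labelled multiple myeloma, so each disease label rests on a single line. Amiloride is a potassium-sparing diuretic, and TG003 inhibits CLK kinases, which phosphorylate splicing factors. The amiloride dose differed between the lines.

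NF-kB is a family of paired DNA-binding proteins. In the canonical branch, receptors act through the kinase IKBKB to destroy IkB inhibitors such as those made by NFKBIA and NFKBIE, which frees pairs of RELA or REL with p50, the product of NFKB1. In the non-canonical branch, the kinase NIK, made by MAP3K14, drives the processing of the NFKB2 product to p52, the partner of RELB. TRAF3, together with TRAF2 and the ubiquitin ligases BIRC2 and BIRC3, keeps NIK low in resting cells. Myeloma cells often carry lesions that raise NF-kB activity, including loss of TRAF3 and rearrangements of MAP3K14, and JJN3 has been described with the second kind. Much of the control acts on proteins, which arrays do not measure.

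Several of these genes are themselves NF-kB targets, and their promoters were searched for words close to the binding site. RefSeq windows of the 250 bases before a listed start (GRCh38.p14) were available for 8 of the 10 genes, 13 windows in all. Both strands were searched for GGGNNTTTC and for GGAAANTCC, words that can overlap each other. At least 1 of them occurred in a window of 7 of the 8 genes, NFKB1, NFKB2, NFKBIA, TNFAIP3, TRAF3, BIRC3 and ICAM1, and in none of the windows of TRAF1. Among all 35116 promoter windows of the same length, 5.04% held either word, 4.16% the first and 1.45% the second. These shares are per window and the count of 7 is per gene, so they are unlike measures. NFKB1 had a match in 1 of its 2 windows and NFKB2 in 2 of its 3. The other genes with a match had 1 window each. The words were settled on after 7 spellings had been tried, so the matches are a description of these letters and not of bound sites. The windows below belong to NFKB1 and ICAM1, called with amiloride in both lines, and NFKBIA, called with TG003 in both. TNFAIP3, called with amiloride in opposite directions in the lines, is also shown. The ICAM1 call in JJN3 and the NFKBIA call in KMS12-BM were lost in several alternatives given below. For NFKB1 only the window with matches is printed. All windows are written 5′ to 3′ on the gene's strand, with matches to either word in capitals.
NFKB1 promoter, chr4:102501109-102501358, plus strand: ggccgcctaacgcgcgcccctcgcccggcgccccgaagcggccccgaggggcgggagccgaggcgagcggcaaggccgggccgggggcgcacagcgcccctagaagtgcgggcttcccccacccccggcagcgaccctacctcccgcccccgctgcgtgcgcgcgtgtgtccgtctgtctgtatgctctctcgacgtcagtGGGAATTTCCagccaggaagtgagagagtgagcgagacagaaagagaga
NFKBIA promoter, chr14:35404750-35404999, minus strand: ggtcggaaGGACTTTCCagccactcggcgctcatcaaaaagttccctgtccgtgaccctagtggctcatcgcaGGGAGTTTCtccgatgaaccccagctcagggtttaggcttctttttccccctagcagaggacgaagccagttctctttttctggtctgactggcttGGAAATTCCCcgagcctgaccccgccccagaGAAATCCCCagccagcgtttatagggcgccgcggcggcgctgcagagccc
TNFAIP3 promoter, chr6:137867009-137867258, plus strand: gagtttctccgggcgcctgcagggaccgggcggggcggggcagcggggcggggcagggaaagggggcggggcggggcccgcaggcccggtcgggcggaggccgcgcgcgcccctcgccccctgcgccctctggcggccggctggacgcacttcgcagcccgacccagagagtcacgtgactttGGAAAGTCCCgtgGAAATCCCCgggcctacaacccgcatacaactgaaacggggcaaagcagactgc
ICAM1 promoter, chr19:10270870-10271119, plus strand: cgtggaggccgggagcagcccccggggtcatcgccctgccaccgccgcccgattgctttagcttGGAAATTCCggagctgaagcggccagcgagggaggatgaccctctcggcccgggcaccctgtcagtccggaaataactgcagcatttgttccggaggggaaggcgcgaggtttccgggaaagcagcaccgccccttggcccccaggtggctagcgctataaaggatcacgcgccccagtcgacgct

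In NFKB1 the overlapping matches of the words lie 49 to 40 bases before the start. NFKBIA holds 4 capital stretches, the nearest 50 to 42 and the farthest 242 to 234 bases before the start, and TNFAIP3 holds a close pair at 67 to 58 and 54 to 46 bases. The single ICAM1 match lies 186 to 178 bases before the start. NFKB1 spans bases 102501359 to 102617302 of chromosome 4, NFKBIA bases 35401513 to 35404749 of chromosome 14, and ICAM1 bases 10271120 to 10286615 of chromosome 19. TNFAIP3 spans bases 137866349 to 137883312 of chromosome 6, where its window precedes a start inside the annotated gene. TRAF3, whose level separated the lines, spans bases 102777449 to 102911500 of chromosome 14.

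All values are log2 expression values. Differences are given ± SE from limma with n = 3 arrays per group, a gene was called at an adjusted p under 0.05 over all 22465 genes, and a level is not compared between genes. Where a group mean lay below the background reference of 6.99, set from control probe sets, the difference is one of array signal and the change in RNA has no measured size. Correlations across genes between arrays of a group ran from 0.9955 to 0.9984. Whether the arrays of a group represent separate cultures is not stated in the labels, and the p-values then cover only the spread between these arrays, which may be technical. In KMS12-BM with amiloride, array 3 carries JJN3 in its cell line field and KMS12-BM in its other fields. Across genes it correlated at 0.998 on average with its own group and at 0.932 with JJN3 amiloride. Of 10 plasma cell markers 8 lay above the reference in at least 1 JJN3 group, against 7 in KMS12-BM. SDC1 was among those below it in KMS12-BM, and CD38 among those below it in JJN3. Of 7 mature B cell markers none passed it in JJN3 and 2, PAX5 and BACH2, did in KMS12-BM. None of the 9 T and NK cell markers and none of the 9 stromal markers passed it in either line, and of 10 myeloid markers only CD68 did, in KMS12-BM. In bulk RNA, a fall may come from fewer cells with the transcript or from less RNA per cell, and these cannot be told apart.

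Of the 9 measured genes 7 lay above the reference in all 6 groups. RELB passed it only with amiloride in KMS12-BM, where its mean was 7.12, and TRAF1 lay below it in every group, so fold changes are not given for RELB and TRAF1. The dot plot of the 9 genes by array shows the spread behind each mean.

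**Figure D1:**
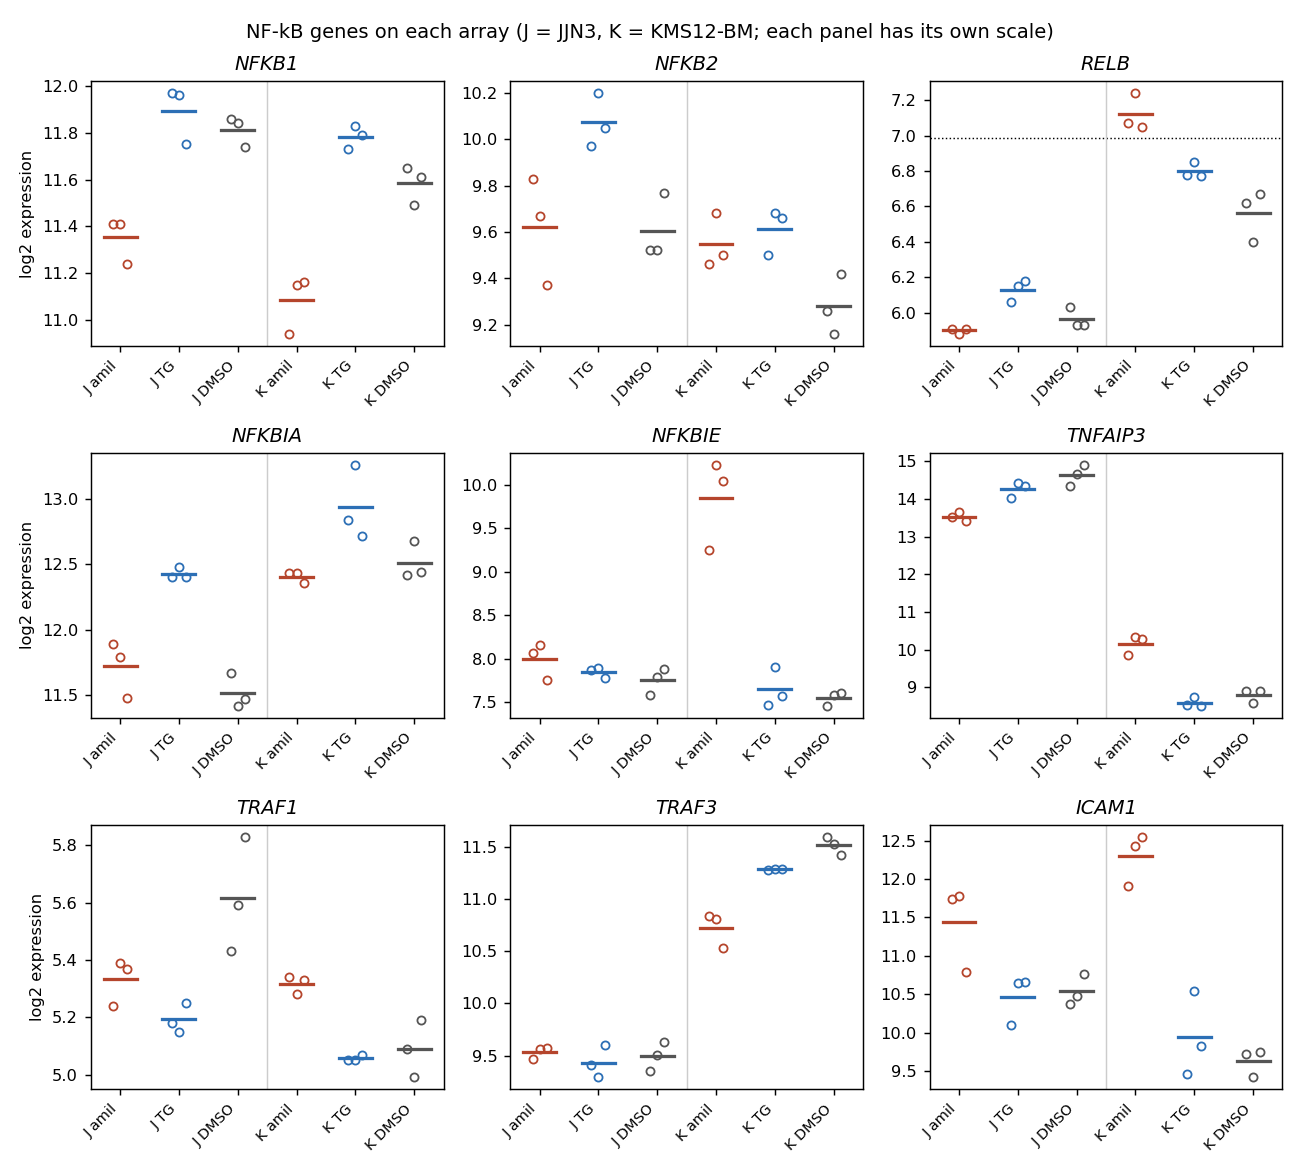
Log2 expression of the 9 genes on each of the 18 arrays (circles), with the group mean as a bar; J is JJN3, K is KMS12-BM, amil is amiloride, TG is TG003 and the dotted line in the RELB panel is the background reference of 6.99. TNFAIP3 and TRAF3 separate the lines in every treatment, and NFKBIE and ICAM1 stand highest in KMS12-BM with amiloride, at means of 9.84 and 12.3.

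Without drug, TNFAIP3 and TRAF3, which encode brakes on the pathway, had the largest differences between the lines among the 9 genes. TNFAIP3, which encodes the ubiquitin-editing feedback inhibitor A20, was 57.4-fold higher in JJN3. TRAF3, the adaptor that holds NIK low, was 4.06-fold lower in JJN3. Of the 9 genes 5 were higher and 3 lower in JJN3, beside 41.2% of all genes called (18.9% higher and 22.3% lower), so a difference in either direction was common between these lines.

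TNFAIP3 measured 14.34, 14.66 and 14.91 on the JJN3 DMSO arrays and 8.91, 8.57 and 8.89 on the KMS12-BM DMSO arrays. Every JJN3 array stood far above every KMS12-BM array, and the difference was 5.84 ± 0.15 (limma, adjusted p = 2.8e-14). TRAF3 measured 9.35, 9.51 and 9.63 on the JJN3 DMSO arrays and 11.6, 11.53 and 11.42 on the KMS12-BM DMSO arrays. All JJN3 arrays were lower here, with a difference of -2.02 ± 0.09 (limma, adjusted p = 3.3e-11), but the gene was well above the reference in both lines.

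The inhibitor gene NFKBIA had 11.67, 11.42 and 11.47 in JJN3 with DMSO and 12.42, 12.68 and 12.44 in KMS12-BM with DMSO. The groups did not overlap, and NFKBIA was 1.99-fold lower in JJN3, a difference of -0.99 ± 0.13 (limma, adjusted p = 5.4e-06). NFKBIE, which encodes IkB epsilon, had a difference of 0.20 ± 0.19 that did not pass (limma, adjusted p = 0.49), with a 95% interval from -0.21 to 0.62. ICAM1, a cell adhesion molecule that binds leukocyte integrins, was 1.89-fold higher in JJN3, at 0.91 ± 0.28 (limma, adjusted p = 0.015).

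Among the subunits, NFKB1 was higher in JJN3 by 0.23 ± 0.08 (limma, adjusted p = 0.028) and NFKB2 by 0.32 ± 0.11 (limma, adjusted p = 0.03). RELB, the partner of p52, was lower in JJN3, at -0.60 ± 0.07 (limma, adjusted p = 2.5e-06), with both means below the reference. TRAF1, an adaptor that binds TRAF2, was higher by 0.53 ± 0.08 (limma, adjusted p = 4.4e-05), also below the reference. Without the second KMS12-BM DMSO array, NFKB1, NFKB2 and ICAM1 no longer passed (adjusted p = 0.13, 0.12 and 0.061), which leaves 5 of the 8 calls. ICAM1 was also lost without the third JJN3 DMSO array (adjusted p = 0.062), NFKB1 without the first or second JJN3 DMSO array (0.094 and 0.081), and NFKB2 without the third JJN3 DMSO or the first KMS12-BM DMSO array (0.15 and 0.074).

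Other pathway genes separated the lines too. REL, the subunit prominent in lymphocytes, averaged 8.57 ± 0.09 in JJN3 and 11.71 ± 0.23 in KMS12-BM with DMSO (SD, n = 3 each), a difference of -3.13 ± 0.11 (limma, adjusted p = 5.9e-13). RELA was lower in JJN3, at -0.82 ± 0.14. Kinase genes differed in both directions: IKBKB was higher in JJN3 by 1.34 ± 0.09, with the KMS12-BM mean below the reference, and MAP3K14 by 0.55 ± 0.09 (limma, adjusted p = 2.1e-09 and 6e-05), while CHUK, the kinase of the non-canonical branch, had a difference of -0.01 that did not pass (adjusted p = 0.96). Among kinase and scaffold genes outside that core, IKBKE was lower in JJN3, at -2.12 ± 0.14 with the JJN3 mean below the reference. The scaffold gene TAB2, whose product links ubiquitin chains to the kinase TAK1, was also lower, at -1.06 ± 0.08.

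Receptors stood lower in JJN3 for 7 of 10 genes and higher for 2, beside 22.3% of all genes lower and 18.9% higher. The receptor counts include genes below the reference in both lines, namely CD40, LTBR, TNFRSF9, TNFRSF11A and TNFRSF13C. CD27, a receptor of memory B cells and plasma cells, averaged 5.43 in JJN3, below the reference, and 14.19 in KMS12-BM. TNFRSF1A, the main TNF receptor, averaged 7.01 in JJN3 and 11.24 in KMS12-BM, and TLR4, a receptor for bacterial lipopolysaccharide, averaged 7.82 in JJN3 and 4.41 in KMS12-BM. CD40 lay below the reference in both lines, at 4.57 in JJN3 and 5.25 in KMS12-BM. The deubiquitinase gene CYLD, another brake on the pathway, was 4.53-fold higher in JJN3, at 2.18 ± 0.12 (limma, adjusted p = 2.6e-10). Its KMS12-BM mean, 7.06, lay just above the reference. The adaptor gene TRAF6 was 1.71-fold lower in JJN3. TRAF4 was lower as well, at -1.45 ± 0.12 with the JJN3 mean below the reference.

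Of 28 further NF-kB targets 13 were higher and 5 lower in JJN3. The chemokine gene CCL3 averaged 9.54 in JJN3 and 5.75 in KMS12-BM, the adhesion gene SDC4 averaged 7.73 in JJN3 and 4.48 in KMS12-BM, and PLEK averaged 7.62 in JJN3 and 4.64 in KMS12-BM. The atypical IkB gene NFKBIZ averaged 7.26 in JJN3 and 5.62 in KMS12-BM. In KMS12-BM the DMSO means of CCL3, SDC4, PLEK and NFKBIZ lay below the reference, as did that of TLR4. The ligand gene LTB was lower in JJN3, at -2.43 ± 0.20 with the JJN3 mean below the reference, and CD70, which encodes the ligand of CD27, was higher by 1.12 ± 0.20. Over all 75 measured pathway genes outside the 9, 27 were higher, 24 lower and 24 did not pass, beside 41.2% of all genes called. The median difference was -0.02, as it was over all genes.

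**Figure D2:**
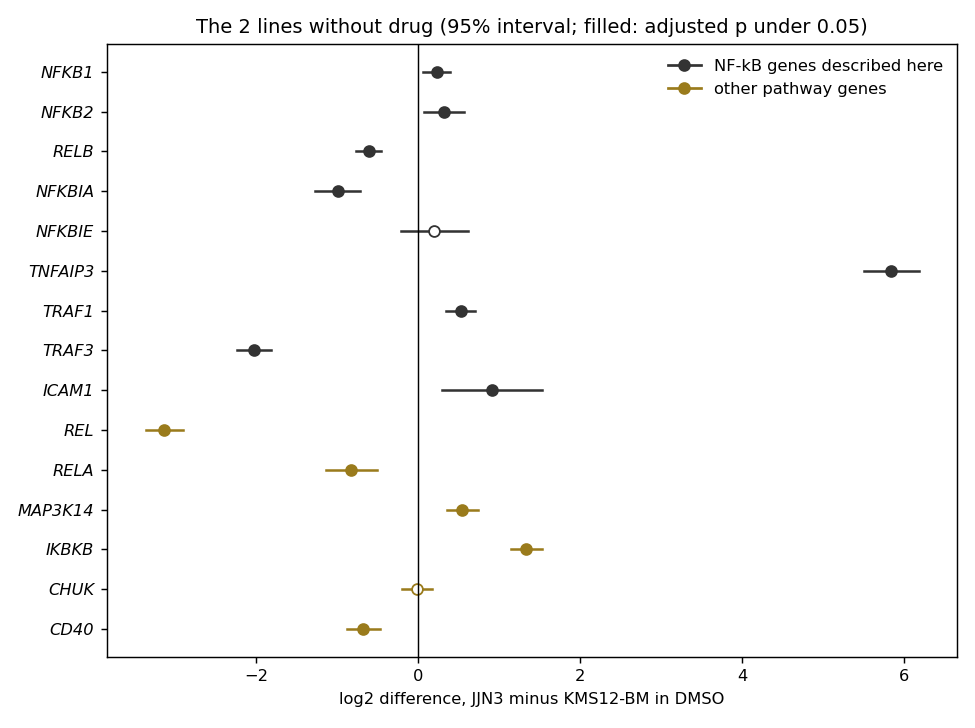
Log2 difference of JJN3 minus KMS12-BM in DMSO for the 9 genes and 6 further pathway genes, with 3 arrays per line. Points carry 95% intervals built from the limma SE with 12 degrees of freedom, and filled points have an adjusted p under 0.05. TNFAIP3 lies far to the right at 5.84, and REL and TRAF3 lie furthest to the left at -3.13 and -2.02.

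In KMS12-BM with 0.1 mM amiloride, ICAM1 rose 6.35-fold, NFKBIE 4.89-fold and TNFAIP3 2.58-fold, while TRAF3 fell 1.73-fold and NFKB1 fell 1.42-fold. Of the 9 genes 5 rose, 2 fell and 2 did not pass, beside 30.6% of all genes called (17.0% higher and 13.6% lower). Their median difference was 0.26, against -0.02 over all genes.

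ICAM1 measured 11.91, 12.43 and 12.55 on the KMS12-BM amiloride arrays, against 9.73, 9.42 and 9.75 on the KMS12-BM DMSO arrays. Every amiloride array lay above every DMSO array, and the difference was 2.67 ± 0.28 (limma, adjusted p = 1.5e-06). NFKBIE measured 9.25, 10.23 and 10.05 with amiloride and 7.46, 7.58 and 7.61 with DMSO. The first amiloride array was the lowest of its group but still stood above all DMSO arrays, and the rise was 2.29 ± 0.19 (limma, adjusted p = 1.2e-07). TNFAIP3 measured 9.86, 10.34 and 10.28 with amiloride and 8.91, 8.57 and 8.89 with DMSO, again without overlap. Its rise was 1.37 ± 0.15 (limma, adjusted p = 2.8e-06), which left it far below its level in any JJN3 group.

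The inhibitor gene NFKBIA measured 12.43, 12.43 and 12.36 with amiloride and 12.42, 12.68 and 12.44 with DMSO. These groups overlapped, and the difference of -0.11 ± 0.13 did not pass (limma, adjusted p = 0.63; 95% interval -0.38 to 0.17). All 4 other measured IkB genes were called higher with amiloride in KMS12-BM, also after each rescaling of the arrays, but only NFKBIB lay above the reference. Of all genes 17.0% were called higher in this comparison. NFKBIB, which encodes IkB beta, rose by 0.67 ± 0.10 (limma, adjusted p = 3.9e-05). The signals of NFKBID, NFKBIZ and BCL3 were higher by 0.82, 0.51 and 0.43, with means below the reference in every KMS12-BM group, and NFKBID, NFKBIZ and BCL3 were named after their values were seen.

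Among the subunits, NFKB1 measured 10.94, 11.15 and 11.16 with amiloride and 11.65, 11.49 and 11.61 with DMSO. All amiloride arrays were lower, with a difference of -0.50 ± 0.08 (limma, adjusted p = 9.1e-05). RELB measured 7.07, 7.24 and 7.05 with amiloride and 6.62, 6.4 and 6.67 with DMSO, a rise of 0.56 ± 0.07 across the background reference (limma, adjusted p = 1.2e-05). NFKB2 had a difference of 0.26 ± 0.11 that did not pass (limma, adjusted p = 0.096; 95% interval 0.02 to 0.51), although its arrays did not overlap. RELA, the main activating subunit, rose by 0.61 ± 0.14 (limma, adjusted p = 0.0032), and REL had 0.19 ± 0.11 (adjusted p = 0.24).

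The adaptors split. TRAF3 measured 10.84, 10.81 and 10.53 on the KMS12-BM amiloride arrays, against 11.6, 11.53 and 11.42 on the DMSO arrays, a change without overlap of -0.79 ± 0.09 (limma, adjusted p = 5.7e-06). TRAF1 rose by 0.23 ± 0.08 below the reference (limma, adjusted p = 0.047), a call lost after a further quantile normalization (adjusted p = 0.068) and when any 1 array of the comparison except the third DMSO array was left out (adjusted p from 0.074 to 0.18). Of 15 other adaptor and ubiquitin regulator genes 10 rose and none fell, beside 17.0% of all genes higher and 13.6% lower. After a further quantile normalization 8 of them rose, and after median centring 9. The list includes genes below the reference in both groups, such as TRAF5 at means of 6.4 with amiloride and 5.73 with DMSO. CYLD rose 3.43-fold, TRAF6 2.64-fold and BIRC2 2.23-fold, at 1.78 ± 0.12, 1.4 ± 0.17 and 1.16 ± 0.08 (limma, adjusted p = 1.4e-08, 7.1e-06 and 2.4e-08). The CYLD mean with DMSO was 7.06, just above the reference, with the third array below it at 6.93. CYLD and A20 remove ubiquitin from pathway proteins, whereas TRAF6 and BIRC2 are ubiquitin ligases.

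Of 9 kinases and their scaffold proteins 5 rose and 1 fell, beside 17.0% of all genes higher and 13.6% lower. TAB2 rose by 1.12 ± 0.08 and MAP3K7, which encodes TAK1, by 0.88 ± 0.10 (limma, adjusted p = 3.2e-08 and 3.6e-06). MAP3K14 averaged 8.6 ± 0.04 with amiloride and 8.06 ± 0.04 with DMSO (SD, n = 3 each), a rise of 0.54 ± 0.09 (limma, adjusted p = 0.00013) beside a mean of 8.61 in JJN3 with DMSO. IKBKB rose by 0.31 ± 0.09 below the reference, CHUK had 0.22 ± 0.08 (adjusted p = 0.054, and 0.029 with the replicate number as a block), and TBK1, a kinase related to the IkB kinases, changed by -0.80 ± 0.08.

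Receptors fell in 4 of 10 genes and rose in none, and of those 4 only TNFRSF1A and CD27 lay above the reference. TNFRSF1A averaged 9.28 with amiloride and 11.24 with DMSO, and CD27 averaged 12.83 with amiloride and 14.19 with DMSO. LTB, which encodes a lymphotoxin subunit that signals to the non-canonical branch, averaged 9.5 with amiloride and 7.65 with DMSO, a 3.6-fold rise of 1.85 ± 0.20 (limma, adjusted p = 2.3e-06). LTA and TNFSF13 were also called higher, by 1.36 and 0.24, with both group means below the reference, and were named after their values were seen. Of 28 further targets 8 rose, 4 fell and 16 did not pass, with a median of -0.02. GADD45B, a stress-inducible gene, rose by 1.5 ± 0.16 from DMSO arrays at 6.94, 7.31 and 6.92, around the reference. CD44, an adhesion receptor, changed by -0.58 ± 0.10 on its brightest probe set but did not pass on the mean of its probe sets (adjusted p = 0.14). JUNB rose by 0.78 ± 0.28 (limma, adjusted p = 0.048), a call lost under a further quantile normalization, under median centring, with the replicate block (adjusted p = 0.063) and when any 1 array of the comparison was left out. After a further quantile normalization the 28 targets split evenly, with 6 higher and 6 lower. Over all 75 pathway genes 31 rose, 9 fell and 35 did not pass, with a median of 0.18, beside 30.6% of all genes called.

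Marker lists of other cell types and of plasma cells also shifted in the same comparison. The summed level of 7 mature B cell markers ran from 8.79 to 9.04 with amiloride and from 8.19 to 8.37 with DMSO. Of these, PAX5 and BACH2, transcription factors of B cells, averaged 7.47 and 7.25 with amiloride and 6.95 and 5.55 with DMSO, and the remaining 5 lay below the reference. Of those 5, CD22, CD24 and SPIB had lower means with amiloride and MS4A1 and FCER2 higher ones. The summed level of 10 myeloid markers was lower, from 8.39 to 8.41 with amiloride and from 8.9 to 9.22 with DMSO, with CD68 at means of 6.68 with amiloride and 8.1 with DMSO. The summed level of 10 plasma cell markers ran from 15.67 to 15.87 with amiloride and from 15.1 to 15.16 with DMSO. The sum is taken over linear values, so the brightest marker, IRF4, weighs most, at means of 15.55 with amiloride and 14.76 with DMSO. PRDM1, XBP1, TNFRSF17 and JCHAIN also had higher means with amiloride, while MZB1, DERL3, CD38, SDC1 and SLAMF7 had lower ones. MZB1 measured 7.99, 7.76 and 7.49 with amiloride and 9.1, 9.14 and 9.4 with DMSO. The part of these markers in the results was not tested, and the 9 markers of T and NK cells and the 9 of stromal cells lay below the reference.

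In JJN3, 0.4 mM amiloride lowered NFKB1, as in KMS12-BM, and lowered TNFAIP3, which had risen in KMS12-BM. TNFAIP3 was 2.15-fold and NFKB1 1.38-fold lower with amiloride, and ICAM1 was 1.85-fold higher, a call that most alternatives did not keep. Of the 9 genes 1 rose, 3 fell and 5 did not pass, beside 14.8% of all genes called (8.65% higher and 6.12% lower). Their median was 0.02, against -0.02 over all genes.

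TNFAIP3 measured 13.52, 13.66 and 13.42 on the JJN3 amiloride arrays and 14.34, 14.66 and 14.91 on the JJN3 DMSO arrays. The amiloride arrays were all lower, with a difference of -1.10 ± 0.15 (limma, adjusted p = 0.00015). NFKB1 measured 11.41, 11.41 and 11.24 with amiloride and 11.86, 11.84 and 11.74 with DMSO, a change of -0.46 ± 0.08 without overlap (limma, adjusted p = 0.00081). ICAM1 measured 11.74, 11.78 and 10.79 with amiloride and 10.38, 10.48 and 10.77 with DMSO. The third amiloride array lay just above the highest DMSO array and far below the other two, and the rise was 0.89 ± 0.28 (limma, adjusted p = 0.046). The ICAM1 call was lost with adjusted p from 0.06 to 0.18 under both rescalings, with only the compared groups, and without any one of the 3 JJN3 DMSO arrays or the first or second amiloride array.

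NFKBIE had 0.25 ± 0.19 in JJN3 (limma, adjusted p = 0.53; 95% interval -0.17 to 0.66), and NFKBIA had 0.20 (adjusted p = 0.41; interval -0.08 to 0.47). TRAF3 had a difference of 0.03 (adjusted p = 0.91; interval -0.17 to 0.24), RELB -0.06 (adjusted p = 0.72; interval -0.22 to 0.09) and NFKB2 0.02 (adjusted p = 0.97; interval -0.23 to 0.26). These 5 intervals all include 0. TRAF1 was lower, at -0.28 ± 0.08 (limma, adjusted p = 0.027), below the reference, and did not pass without JJN3 DMSO array 2 or 3 or amiloride array 1 (adjusted p = 0.056, 0.14 and 0.12).

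Of the 75 other pathway genes 6 rose, 9 fell and 60 did not pass in JJN3, beside 14.8% of all genes called. CYLD rose 2.05-fold, at 1.03 ± 0.12 (limma, adjusted p = 3.7e-05), and MALT1, a protease that cuts A20 and CYLD in lymphocytes, rose by 0.63 ± 0.10. CHUK rose by 0.40 ± 0.08, TLR4 by 0.47 ± 0.10 and NFKBIZ by 0.49 ± 0.11, while TBK1 changed by -0.27 ± 0.08 and TNIP1, a partner of A20, changed by -0.29 ± 0.06. Of 28 further targets none rose and 6 fell. CCL3 averaged 7.3 with amiloride and 9.54 with DMSO, a change of -2.24 ± 0.28 (limma, adjusted p = 6.9e-05), PLEK changed by -0.77 ± 0.15 to a mean below the reference, and CD74, the invariant chain of MHC class II, changed by -0.45 ± 0.10. MAP3K14 had 0.21 ± 0.09 (adjusted p = 0.13), RELA 0.18 (0.54), REL 0.06 (0.85), IKBKB 0.00 (1) and CD40 -0.02 (0.96), and none of these passed.

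The difference between the lines in the amiloride response was tested directly, JJN3 minus KMS12-BM. Of the 9 genes 6 differed, 5 with a lower and 1 with a higher response in JJN3, beside 18.5% of all genes called (8.68% higher and 9.78% lower). TNFAIP3 differed by -2.47 ± 0.22 (limma, adjusted p = 1.6e-06), since it fell in JJN3 and rose in KMS12-BM. NFKBIE differed by -2.04 ± 0.27 and ICAM1 by -1.78 ± 0.40 (limma, adjusted p = 6e-05 and 0.0045), both with the larger rise in KMS12-BM. RELB differed by -0.62 ± 0.10, TRAF1 by -0.51 ± 0.12 and TRAF3 by 0.83 ± 0.13 (limma, adjusted p = 0.00039, 0.0049 and 0.00037).

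NFKB1 was not called different, at 0.04 with an interval from -0.20 to 0.28 (limma, adjusted p = 0.91). NFKB2 had -0.25 (adjusted p = 0.38) and NFKBIA 0.30 (adjusted p = 0.32). The dose was 0.4 mM in JJN3 and 0.1 mM in KMS12-BM, so line and dose cannot be told apart in these differences. The same 6-gene count was found in every fit that left out 1 array.

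**Figure D3:**
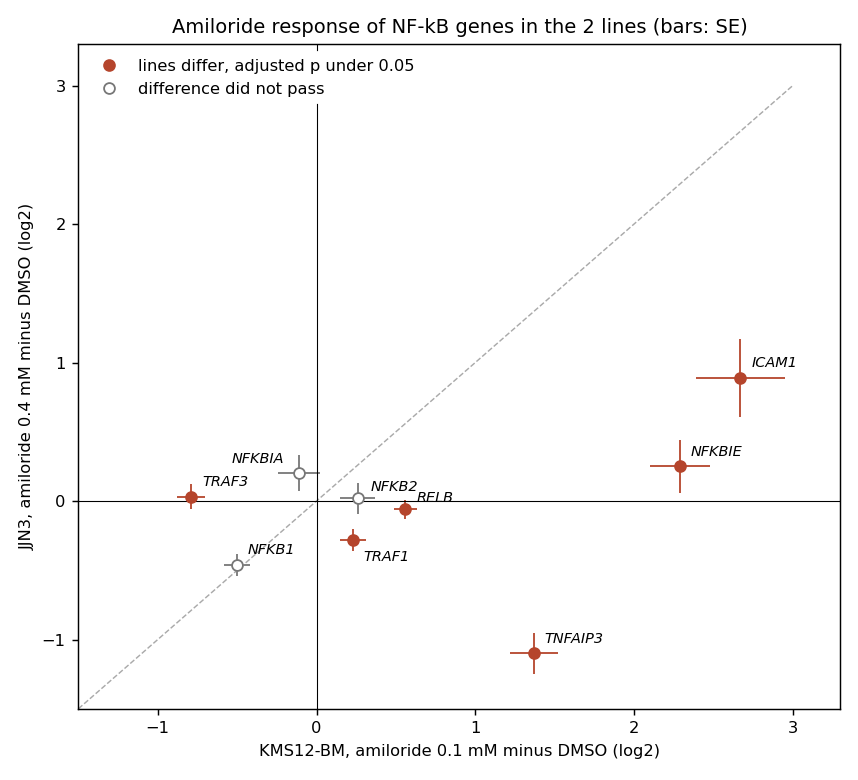
Log2 difference of amiloride minus DMSO in JJN3 (vertical axis, 0.4 mM) against that in KMS12-BM (horizontal axis, 0.1 mM) for the 9 genes, with bars of 1 SE; filled points differ between the lines at an adjusted p under 0.05 and the dashed line marks equal responses. NFKB1 lies on the line of equal responses, near -0.5 in both, and TNFAIP3 lies at -1.10 in JJN3 and 1.37 in KMS12-BM.

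With TG003, NFKBIA was called in both lines, and it was the only 1 of the 9 genes that was. In JJN3 NFKBIA rose 1.87-fold and NFKB2 1.38-fold, and 2 genes rose, 1 fell and 6 did not pass, beside 9.38% of all genes called (3.74% higher and 5.64% lower). In KMS12-BM NFKBIA rose 1.35-fold and RELB rose slightly, and 2 genes rose, none fell and 7 did not pass, beside 14.8% of all genes called (8.30% higher and 6.52% lower). After median centring 23.3% of the called genes were higher in JJN3, against 39.9% before it, and after a further quantile normalization 39.4% were higher in KMS12-BM, against 56% before it. TNFAIP3 and ICAM1, which moved with amiloride in both lines, were not called with TG003 in either.

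NFKBIA measured 12.4, 12.48 and 12.4 on the JJN3 TG003 arrays and 11.67, 11.42 and 11.47 on the JJN3 DMSO arrays. All TG003 arrays lay above, by 0.91 ± 0.13 (limma, adjusted p = 0.00025), giving a mean of 12.43 in JJN3 with TG003, beside 12.51 in KMS12-BM with DMSO. In KMS12-BM NFKBIA measured 12.84, 13.26 and 12.72 with TG003 and 12.42, 12.68 and 12.44 with DMSO. The lowest TG003 array and the highest DMSO array lay close together, and the rise was 0.43 ± 0.13 (limma, adjusted p = 0.03). It did not pass after either rescaling, with only the compared groups, or without DMSO array 1 or 3 or TG003 array 2, with adjusted p from 0.057 to 0.16.

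NFKB2 measured 9.97, 10.2 and 10.05 in JJN3 with TG003 and 9.52, 9.52 and 9.77 with DMSO, without overlap. Its rise was 0.47 ± 0.11 (limma, adjusted p = 0.014), lost after median centring (adjusted p = 0.052) and without the first or second JJN3 DMSO array or the second TG003 array (0.06, 0.062 and 0.06). In KMS12-BM NFKB2 had 0.33 ± 0.11 (limma, adjusted p = 0.061), and it passed when only genes above the reference were tested (adjusted p = 0.038) or without the third KMS12-BM DMSO array (0.049). RELB rose in KMS12-BM by 0.23 ± 0.07 below the reference (limma, adjusted p = 0.037), a call lost in 4 of 7 alternatives and without the second DMSO array or any 1 of the TG003 arrays, with adjusted p from 0.052 to 0.3. In JJN3 RELB had 0.17 (adjusted p = 0.19).

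TRAF1 measured 5.18, 5.15 and 5.25 in JJN3 with TG003 and 5.43, 5.59 and 5.83 with DMSO, a change of -0.43 ± 0.08 below the reference (limma, adjusted p = 0.0031), with adjusted p = 0.051 when only the compared groups entered. TNFAIP3 had -0.37 ± 0.15 in JJN3 and -0.20 in KMS12-BM with TG003 (limma, adjusted p = 0.18 and 0.52), and the JJN3 interval ran from -0.70 to -0.03. ICAM1 had -0.08 in JJN3 and 0.31 in KMS12-BM (adjusted p = 0.93 and 0.62), with wide intervals of -0.69 to 0.54 and -0.30 to 0.93. NFKB1 had 0.08 and 0.20 (adjusted p = 0.69 and 0.12), NFKBIE 0.09 and 0.10 (0.87 and 0.86), and TRAF3 -0.06 and -0.23 (0.82 and 0.14), each given for JJN3 and then for KMS12-BM.

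The TG003 response was not called different between the lines for any of the 9 genes with limma, beside 4.57% of all genes called (1.92% higher and 2.64% lower in JJN3). TRAF1 came nearest, at -0.39 ± 0.12 (limma, adjusted p = 0.069), and it passed with the replicate block (adjusted p = 0.036) and after each rescaling (0.047 and 0.033). NFKBIA had 0.48 ± 0.18 (limma, adjusted p = 0.17). At an unadjusted p under 0.05, 2 of the 9 genes differed.

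**Figure D4:**
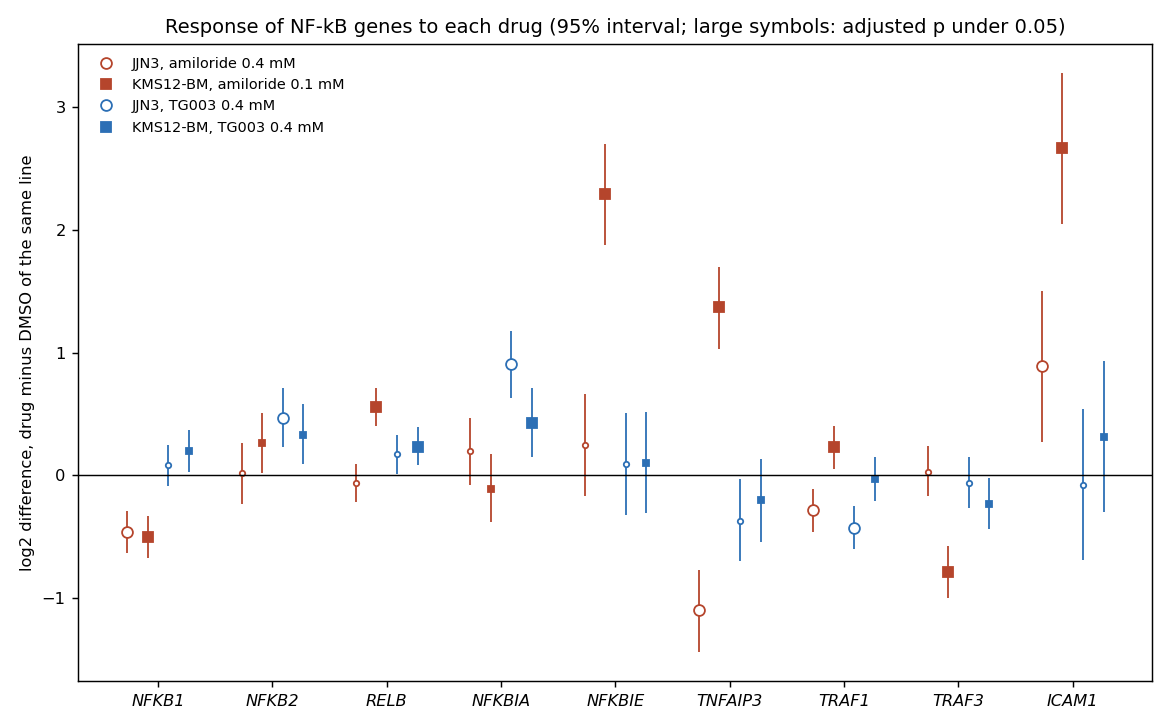
Log2 difference of each drug minus DMSO of the same line for the 9 genes, with 3 arrays per group. The 95% intervals are built from the limma SE with 12 degrees of freedom. Circles are JJN3, squares are KMS12-BM, red is amiloride, blue is TG003, and large symbols have an adjusted p under 0.05. The amiloride responses of NFKBIE, TNFAIP3 and ICAM1 in KMS12-BM stand furthest above 0, while the TG003 responses stay between -0.43 and 0.91.

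Of the 75 other pathway genes with TG003, 3 rose and 7 fell in JJN3, beside 9.38% of all genes called. In KMS12-BM 6 rose and 12 fell, beside 14.8% of all genes called. After each rescaling 3 rose and 12 fell in KMS12-BM. In JJN3 4 rose and 8 fell after a further quantile normalization, and 2 rose and 9 fell after median centring. TNFRSF17, the receptor BCMA of plasma cells, fell in both lines. It averaged 6.58 with TG003 and 8.67 with DMSO in JJN3, and 8.03 with TG003 and 9.73 with DMSO in KMS12-BM. MAP3K7 rose by 0.67 ± 0.10 in JJN3 and 0.74 ± 0.10 in KMS12-BM (limma, adjusted p = 0.00046 and 0.00013). In JJN3 CCL3 averaged 6.14 with TG003, below the reference, and 9.54 with DMSO, a signal difference of -3.40 ± 0.28 (limma, adjusted p = 2.6e-06). TNFRSF17 with TG003 in JJN3 also lay below it. NFKBIZ rose in JJN3 by 0.67 ± 0.11 and SQSTM1, an autophagy receptor, by 0.30 ± 0.08.

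In KMS12-BM the receptor genes CD27 and TNFRSF1A changed by -2.04 ± 0.15 and -0.84 ± 0.13 with TG003 (limma, adjusted p = 5.7e-07 and 0.00041). IKBKE changed by -1.24 ± 0.14, TBK1 by -0.49 ± 0.08, CHUK by -0.35 ± 0.08 and TRAF4 by -0.44 ± 0.12. TRAF6 rose by 0.57 ± 0.17 and BIRC2 by 0.49 ± 0.08. Of the targets, CD83, a marker of activated lymphoid cells, rose by 0.62 ± 0.09, while TNFAIP8 changed by -0.38 ± 0.08, with the TG003 mean below the reference. CD44 changed by -0.60 ± 0.10, but by -0.35 on the mean of its probe sets, which did not pass (adjusted p = 0.061). RELA rose by 0.46 ± 0.14 (limma, adjusted p = 0.043), a call lost with the replicate block (adjusted p = 0.06), after each rescaling and when any 1 array of the comparison was left out.

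The summed level of 10 plasma cell markers moved with TG003 as well. It ran from 16.18 to 16.55 with TG003 and from 16.91 to 17.01 with DMSO in JJN3, and from 14.05 to 14.21 with TG003 and from 15.1 to 15.16 with DMSO in KMS12-BM. The summed level of 10 myeloid markers in KMS12-BM ran from 8.31 to 8.53 with TG003 and from 8.9 to 9.22 with DMSO, with CD68 at means of 6.81 with TG003 and 8.1 with DMSO. The plasma cell and receptor lists share TNFRSF17, and the part of these markers in the results was not tested.

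**Figure D5:**
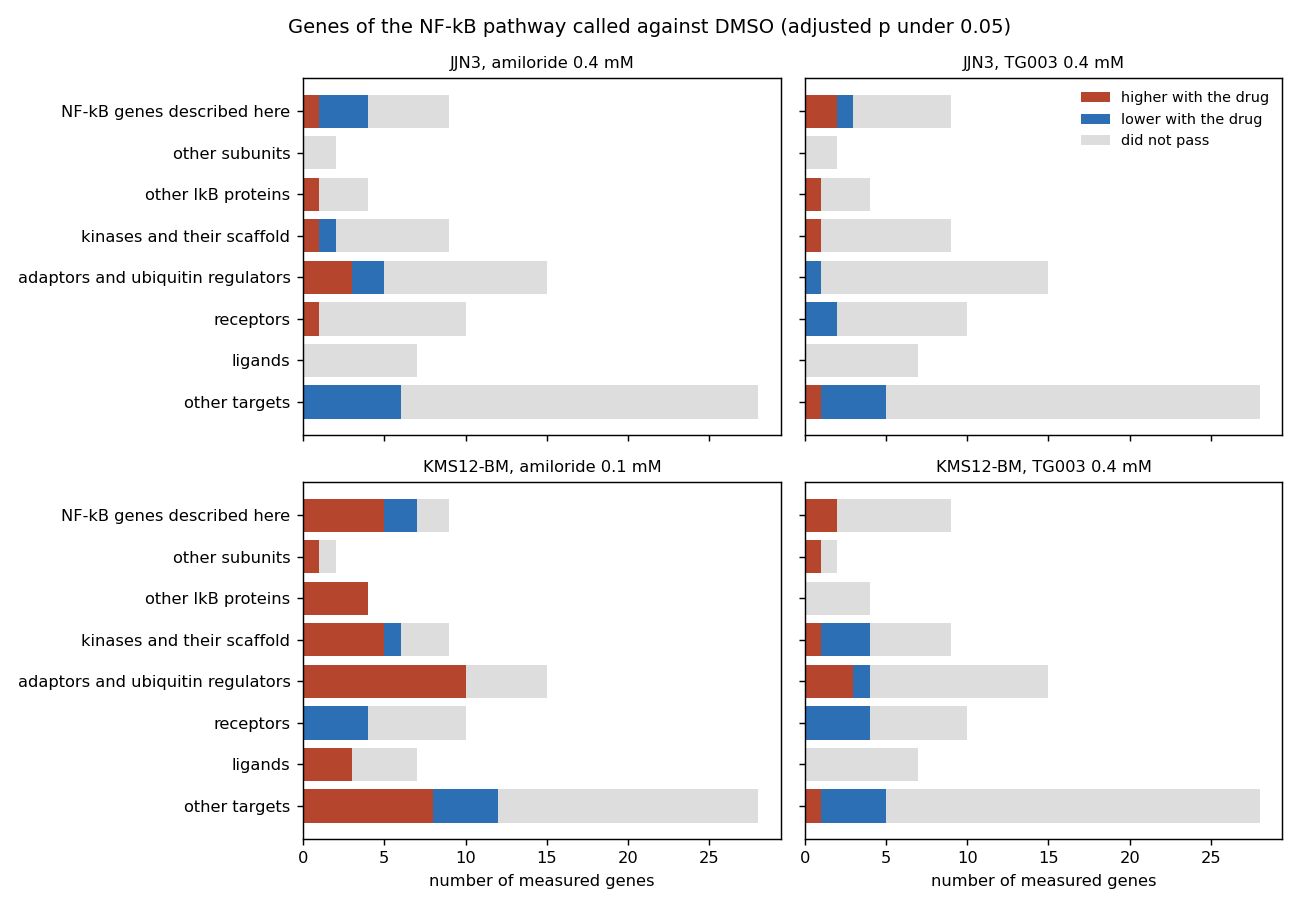
Number of measured genes that were higher (red), lower (blue) or not called (grey) against DMSO of the same line, for the 9 genes and 7 lists of other NF-kB pathway genes, in each line and drug. KMS12-BM with amiloride has 10 of 15 adaptor and ubiquitin regulator genes higher, beside 17.0% of all genes. The receptor genes called in KMS12-BM are lower with both drugs, 4 of 10 in each. Of all genes, 13.6% are lower with amiloride and 6.52% with TG003 in KMS12-BM. Of the called receptor genes, TNFRSF1A and CD27 with both drugs and TNFRSF17 with TG003 lay above the background reference, and the rest lay below it.

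The drugs were also set against each other within a line. In JJN3, where both were given at 0.4 mM, 1 of the 9 genes was higher with amiloride than with TG003 and 5 were lower, beside 16.9% of all genes called (10.5% higher and 6.41% lower). After median centring 78.6% of the called genes were higher with amiloride, against 62.1% before it. TNFAIP3 was lower with amiloride, at -0.74 ± 0.15, as were NFKBIA at -0.71 ± 0.13 and NFKB1 at -0.54 ± 0.08 (limma, adjusted p = 0.0031, 0.00095 and 0.00018). NFKB2 was lower, at -0.45, and RELB, at -0.23 (limma, adjusted p = 0.0098 and 0.035), and ICAM1 was higher by 0.96 ± 0.28 (limma, adjusted p = 0.027). With only these 2 groups in the fit NFKB2, RELB and ICAM1 no longer passed (adjusted p = 0.061, 0.079 and 0.067), and neither did ICAM1 without the first or second amiloride array or the first TG003 array (0.11, 0.12 and 0.12). After median centring NFKB2 and RELB did not pass either (adjusted p = 0.054 and 0.2).

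In KMS12-BM the doses differed, 0.1 mM amiloride and 0.4 mM TG003. ICAM1 averaged 12.3 with amiloride and 9.95 with TG003, NFKBIE 9.84 with amiloride and 7.65 with TG003, and TNFAIP3 10.16 with amiloride and 8.59 with TG003. TRAF3 averaged 10.73 with amiloride and 11.29 with TG003, and NFKB1 averaged 11.08 with amiloride and 11.78 with TG003. In limma 5 of the 9 genes were higher and 3 lower in the amiloride group, beside 29.8% of all genes called (15.8% higher and 14.0% lower), and these calls compare unlike doses. The differences were 2.35 ± 0.28 for ICAM1, 2.19 ± 0.19 for NFKBIE and 1.57 ± 0.15 for TNFAIP3 (limma, adjusted p = 5.8e-06, 1.9e-07 and 6.7e-07). NFKB2 had -0.07 and did not pass (adjusted p = 0.79).

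The order of the group means differed from gene to gene. TNFAIP3 stood highest in JJN3 with DMSO at 14.64 and TG003 at 14.27, whose arrays overlapped, then in JJN3 with amiloride at 13.53. KMS12-BM followed, with amiloride at 10.16 and with DMSO and TG003 at 8.79 and 8.59, which overlapped. TRAF3 ran the other way, with KMS12-BM DMSO at 11.52, TG003 at 11.29 and amiloride at 10.73, each apart from the next, above the JJN3 groups at 9.53, 9.5 and 9.44, which overlapped.

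ICAM1 was highest with amiloride in both lines, at 11.43 in JJN3 and 12.3 in KMS12-BM, and the arrays of the remaining groups overlapped with their neighbours between 10.55 and 9.63. NFKBIE stood apart only in KMS12-BM with amiloride, at 9.84, and the other groups lay between 8.0 and 7.55 with overlapping neighbours. NFKBIA was highest in KMS12-BM with TG003 at 12.94 and lowest in JJN3 with DMSO at 11.52. NFKB1 was lowest in both amiloride groups, at 11.35 in JJN3 and 11.08 in KMS12-BM.

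Across the 18 arrays, after the mean of each line was taken off, NFKBIE and ICAM1 varied most alike, with a Pearson r of 0.94. NFKBIE and TRAF3 ran opposite, at -0.87, as did RELB and TRAF3 at -0.81 and NFKB1 and ICAM1 at -0.77. NFKBIA varied with NFKB2 at 0.73 and against TRAF1 at -0.76. The arrays share their 6 groups, so these values describe group differences and carry no test.

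By the same measure, and among 2014 genes with levels above the reference and a range of group means of at least 1 in a line, the gene most like each was found. For NFKBIE it was CAMSAP1 at 0.99, for ICAM1 DCP1A at 0.98 and for NFKB1 RAD51D at 0.97. TRAF3 was closest to GATM at 0.96, TNFAIP3 and RELB to FEZ1 and PARP6, each at 0.92, and NFKBIA to ZNF473 at 0.89. TRAF1 was closest to TMEFF1 at 0.87 and NFKB2 to PTGER4 at 0.84.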

How the data were processed

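RNA of 18 samples was hybridised to human whole-transcriptome arrays. The authors deposited log2 values from RMA, which corrects background, quantile-normalizes and summarises probe sets, per the submitters' processing notes. No source used here gives the genome build. Of 70523 probe sets, 23781 carry 1 gene symbol in the platform annotation used, 1543 carry several and 45199 are not listed. The probe set with the highest mean stands for a gene, which gave 22465 genes. A gene-level value does not separate isoforms. The background reference, 6.99, is the 95th percentile of 92 ERCC control probe sets.

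Groups follow the sample titles. limma 3.58.1 in R 4.3.3 fitted all 6 groups together (12 residual degrees of freedom) and gave 9 contrasts. Tests were two-sided, p-values were Benjamini-Hochberg adjusted over the 22465 genes, and the code was tested on simulated data. For arrays, their number limits the precision. The genes, the pathway lists and the tests were chosen with earlier results of these data known. Named pathway genes are up to 3 called genes per list and comparison with the largest difference and a mean above the reference, and RELA, REL, MAP3K14, IKBKB, CHUK and CD40 always. Alternatives were 2 rescalings, a filter on dim genes, another prior variance, only the compared groups, another probe set rule, a replicate block and leaving out each array. Replicate numbers follow a serial code in the titles. After removal of group means, every same-number correlation exceeded 0.1 in 4 of 15 group pairs, namely DMSO with TG003 in each line, the lines in DMSO, and KMS12-BM amiloride with JJN3 TG003. The main fits paired no arrays, also in these group pairs, and only the replicate block used the numbers. Between DMSO and amiloride the correlations were 0.09, 0.23 and 0.11 in KMS12-BM and 0.17, 0.11 and -0.1 in JJN3. Whether arrays with the same number were handled together is not stated.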

Additional observations from a re-analysis of the deposited data

Results flagged for a closer look

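These values are differences in response, JJN3 minus KMS12-BM, that passed limma's test of the difference itself at an adjusted p under 0.05. With amiloride, whose dose differed between the lines, TNFAIP3 differed by -2.47, NFKBIE by -2.04, ICAM1 by -1.78, RELB by -0.62, TRAF1 by -0.51 and TRAF3 by 0.83. The inhibitor gene NFKBIB differed by -0.74. Among the kinases and their scaffold, TAB2 differed by -0.89, MAP3K7 by -0.65 and TBK1 by 0.53. Among the adaptors and ubiquitin regulators, TRAF6 differed by -1.34, BIRC2 by -1.23, TNIP1 by -1.07 and CYLD by -0.75. The receptor genes TNFRSF1A and CD27 differed by 1.71 and 1.53, beside JJN3 levels near or below the background reference, and the ligand gene LTB by -1.53, also with JJN3 below it. Among the targets, CCL3 differed by -2.5, GADD45B by -1.2, PLEK by -0.94 and CD44 by 0.67.

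With TG003, none of the 9 genes differed in limma, and 2, NFKBIA and TRAF1, had an unadjusted p under 0.05. Among the other pathway genes CD27 differed by 2.04, IKBKE by 0.89, TNFRSF1A by 0.71, NFKBIZ by 0.59 and CD44 by 0.57. CCL3 differed by -2.69 and CD83 by -0.69. CD27, IKBKE, CD83 and LTB lay below the reference in every JJN3 group, and CCL3, NFKBIZ and PLEK in every KMS12-BM group.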

How the results depend on the processing

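Of 1152 values of the 9 genes under the alternatives, 1079 kept their side of the threshold. A further 66 kept the direction and lost the call, 7 gained a call and 0 reversed. Direction was checked only where the main fit or the alternative called the gene, so uncalled values among the 1079 may have changed sign. Each of the 9 genes has 1 probe set, so the other probe set rule could not move their differences, and its values are among those kept. With only the compared groups in the fit, 2 of the 9 genes were called for JJN3 amiloride against DMSO, in place of 4, 3 for JJN3 amiloride against TG003, in place of 6, and 0 for KMS12-BM TG003 against DMSO, in place of 2. That last count was also 0 after each rescaling and 1 with a trended and robust prior variance. For the difference in the TG003 response the count was 1, in place of 0, after each rescaling and with the replicate block, and this gene was TRAF1. The block changed no other call among the 9 genes. Between amiloride and DMSO of a line, not every same-number correlation exceeded 0.1.

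Leaving out 1 array gave 6 to 7 calls for KMS12-BM amiloride against DMSO (7 with all arrays), 2 to 4 for JJN3 amiloride (4), 0 to 2 for KMS12-BM TG003 (2), 2 to 3 for JJN3 TG003 (3), 5 to 8 for the lines in DMSO (8), 7 to 8 for amiloride against TG003 in KMS12-BM (8) and 4 to 5 in JJN3 (6). It gave 6 to 6 for the amiloride difference (6) and 0 to 1 for the TG003 difference (0). The JJN3 amiloride count was 2 without JJN3 DMSO array 2 or 3 or amiloride array 1. The KMS12-BM TG003 count was 0 without TG003 array 2 and 1 without DMSO array 1 or 2 or TG003 array 1 or 3. The count for the lines was 5 without KMS12-BM DMSO array 2. The TG003 difference had 1 call without JJN3 DMSO array 1 (TRAF1) or KMS12-BM TG003 array 2 (NFKBIA, adjusted p = 0.032). Over all genes it had 677 to 992 calls, against 1026, with 679 without KMS12-BM DMSO array 1 and 677 without JJN3 DMSO array 2.

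Among other pathway genes in KMS12-BM with TG003, the calls of TRAF6 and TRAF4 were lost without DMSO array 1 or 3 or TG003 array 2 (adjusted p from 0.092 to 0.19). With only the compared groups TRAF6, TRAF4 and CHUK were lost (0.091, 0.15 and 0.057), and TRAF6 after each rescaling (0.053 and 0.069). In JJN3 with TG003 SQSTM1 was lost without DMSO array 1 or 2 or TG003 array 1 or 2 (0.088 to 0.14), after median centring (0.12) and with only the compared groups (0.13), and REL passed in 3 alternatives (0.035 to 0.047). In JJN3 with amiloride TBK1 was lost without any DMSO array or amiloride array 3 (0.051 to 0.092) and after median centring (0.091), and MAP3K14 passed without amiloride array 3 (0.0016). In KMS12-BM with amiloride IKBKB was lost without DMSO array 2 or amiloride array 1 (0.058 and 0.069), and CHUK passed in 4 alternatives, the replicate block among them (0.026 to 0.05). The cause of these changes was not tested. TRAF1, and RELB outside KMS12-BM with amiloride, lay below the background reference, where a difference in signal says least.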
